A study of Mus musculus with 2 samples.

Results

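Antibodies act on immune cells through receptors for their constant (Fc) part. The activating receptors for IgG carry no strong signaling motif of their own and pair with the common gamma chain, whose activation motif is phosphorylated and recruits the kinase Syk. The inhibitory receptor carries an inhibitory motif that recruits the lipid phosphatase encoded by *Inpp5d*. The neonatal receptor is a relative of class I histocompatibility molecules, pairs with beta-2 microglobulin and returns IgG and albumin from endosomes to the cell surface. Macrophages, monocytes and neutrophils are known to carry several of these receptors at once, and the balance of activating to inhibitory receptors sets their response to antibody-coated cells. The 6 genes described here were chosen by symbol from the 55450 genes of the files. They are *Fcgr1*, the high-affinity activating receptor, *Fcgr3* and *Fcgr4*, activating receptors of lower affinity, *Fcgr2b*, the inhibitory receptor, *Fcer1g*, the common gamma chain, and *Fcgrt*, the heavy chain of the neonatal receptor.

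The genes were followed in single-cell RNA sequencing of EMT6 tumors, a mouse mammary carcinoma line grown under the skin of BALB/c mice, in 2 libraries. Mice of the Olaparib + LLY-283 group received Olaparib, a PARP inhibitor, at 50 mg/kg a day together with LLY-283, a PRMT5 inhibitor, at 50 mg/kg in cycles of 3 days of dosing and 4 days of rest. Mice of the Combo group received both drugs at these doses and, in addition, 200 µg of an anti-PD-1 antibody at intervals of 3 days. Tumors of 3 mice were pooled for each library, so every comparison is between 1 pool and another, with no replicate and no test. The methods call the purchased mice BALB/c (nude) and the injected mice immunocompetent.

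The unit is the UMI, a tag that marks 1 captured transcript. Values are UMIs summed over the cells of a class and given per 1000000 UMIs of that class (CPM), with an exact Poisson 95% interval. Ratios between libraries have an exact conditional binomial 95% interval. All intervals cover counting error only, and none covers differences between mice. The Olaparib + LLY-283 library held 16115 cells with a median of 7376 UMIs, and the Combo library 7542 cells with a median of 3613.5. After filters, 13974 and 5672 cells were clustered without the 6 genes and named from markers that hold none of them. Only 39 barcodes occurred in both libraries, 23 of them kept in both. With those cells left out, as with them, none of the 6 genes passed 1.5-fold between libraries in macrophage-like or neutrophil-like cells. In Olaparib + LLY-283 and in Combo, respectively, the macrophage-like class held 918 and 619 cells, the monocyte-like class 59 and 58, the neutrophil-like class 672 and 1417, the dendritic-like class 72 and 44, the osteoclast-like class 72 and 27 and the NK-like class 21 and 20. The classes differed in depth: macrophage-like cells had a median of 1907 UMIs in Olaparib + LLY-283 and 11091 in Combo, and neutrophil-like cells 651.5 and 1897. Macrophage-like cells held all 12 macrophage markers, summing to 11972 and 12032 CPM, and neutrophil-like cells all 10 neutrophil markers, summing to 82810 and 101023 CPM. The NK-like cells held 8 of 10 NK markers in each library, summing to 3808 and 2648 CPM. They were picked cell by cell for UMIs of NK markers and none of *Cd3d*, *Cd3e* or *Cd3g*, so this sum is no separate check. The same cells held T markers at 1027 and 636 CPM and dendritic markers at 2020 and 957 CPM.

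In the mm10 build, *Fcgr2b*, *Fcgr4*, *Fcgr3* and *Fcer1g* lie near each other on chromosome 1. *Fcgr2b* spans chr1:170958617-170976547, *Fcgr4* chr1:171018920-171029761, *Fcgr3* chr1:171051174-171064935 and *Fcer1g* chr1:171229572-171234365. *Fcgr1* lies at chr3:96282909-96293969 and *Fcgrt* at chr7:45092990-45103851. All but *Fcgr4* are on the minus strand, and all 6 are protein coding. *Fcgr2b* and *Fcgrt* each overlap an antisense gene, Gm38204 and Gm45669, which had 3 and 54 UMIs over all clustered cells. *Fcgr3* and *Fcgr2b* share sequence: of the 50-base stretches of their transcripts, 9.58% and 2.92% also occur in another of the 6 genes. In the last 500 bases, where 3′ libraries are read, the shares were 0 and 1.36%. Reads of the pair are therefore separable over nearly all of that end.

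The 250 bases before the start of 4 genes are shown, since the results on cell states below turn on these genes. The sequences are from RefSeq on GRCm38.p6, whose promoter table holds all 6 genes. For *Fcgr3* it lists a pair of starts, both within the gene's span above, and the window of one is shown. Capitals mark matches, on either strand, to GAGGAA, the core bound by the myeloid factor PU.1, to TTCNNNGAA, the GAS element bound by STAT dimers, and to the core of the interferon-stimulated response element, written as GAAA, any 2 bases and GAAA. None of these matches overlap. The *Fcgr4* window is chr1:171018676-171018925 on the plus strand. The *Fcgr3* window is chr1:171059404-171059653, the *Fcgr1* window chr3:96293970-96294219 and the *Fcgrt* window chr7:45103823-45104072, all on the minus strand.
Fcgr1: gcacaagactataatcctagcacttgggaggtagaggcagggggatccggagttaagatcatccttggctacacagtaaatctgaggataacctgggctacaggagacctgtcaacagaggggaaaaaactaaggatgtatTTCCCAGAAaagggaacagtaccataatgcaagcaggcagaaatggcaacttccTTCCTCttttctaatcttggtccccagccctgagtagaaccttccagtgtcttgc
Fcgr4: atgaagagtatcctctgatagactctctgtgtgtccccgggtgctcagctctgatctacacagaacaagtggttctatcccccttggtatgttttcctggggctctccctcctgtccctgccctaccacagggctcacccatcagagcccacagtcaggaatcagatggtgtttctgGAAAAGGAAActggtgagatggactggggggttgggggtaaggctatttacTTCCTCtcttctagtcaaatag
Fcgr3: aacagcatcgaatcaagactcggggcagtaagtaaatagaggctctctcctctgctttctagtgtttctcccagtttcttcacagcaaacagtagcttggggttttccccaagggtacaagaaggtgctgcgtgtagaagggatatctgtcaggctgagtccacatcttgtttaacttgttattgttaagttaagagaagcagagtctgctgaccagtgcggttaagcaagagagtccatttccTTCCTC
Fcgrt: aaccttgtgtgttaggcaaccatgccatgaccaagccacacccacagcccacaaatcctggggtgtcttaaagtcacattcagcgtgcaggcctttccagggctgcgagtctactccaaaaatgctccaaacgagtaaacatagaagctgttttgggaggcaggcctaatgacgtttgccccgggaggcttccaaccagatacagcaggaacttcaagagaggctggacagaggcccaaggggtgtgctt
The PU.1 core occurred in the windows of *Fcgr1*, *Fcgr3* and *Fcgr4*. The GAS motif occurred in that of *Fcgr1* and the interferon-stimulated response motif in that of *Fcgr4*. The windows of *Fcgrt*, *Fcgr2b* and *Fcer1g* held no match to any of them. Among 32851 promoters of the table, 23.3% held the PU.1 core, 7.02% the GAS motif and 2.98% the interferon-stimulated response motif. A match describes letters and is no evidence of binding.

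Transcripts of the IgG receptors and of the gamma chain were found mainly in phagocytes. Macrophage-like cells held 68.3% of all *Fcgr1* UMIs in Olaparib + LLY-283 and 76.4% in Combo, and 69.7% and 78.1% of *Fcgr2b* UMIs. For *Fcgr3*, macrophage-like cells held 57.1% and 60.2% neutrophil-like cells 12.1% and 24.8% and tumor-like cells 19.8% and 9.02%. For *Fcer1g*, the shares were 59.1% and 59.5% in macrophage-like cells 9.21% and 20.4% in neutrophil-like cells and 17.8% and 8.92% in tumor-like cells. For *Fcgr4*, macrophage-like cells held 44.7% and 44.4%, neutrophil-like cells 14% and 27.4% and tumor-like cells 30.7% and 19.0%. Tumor-like cells held few UMIs each but were by far the most numerous. *Fcgrt* differed from the other 5: tumor-like cells, which made up 80.1% and 53.8% of the clustered cells, held 84.5% and 64.6% of its UMIs. The highest CPM of 5 of the 6 genes was in macrophage-like or monocyte-like cells in both libraries. The exception was *Fcgr3*, highest in neutrophil-like cells of Combo. Under most alternative settings the count was 4.

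**Figure D1:**
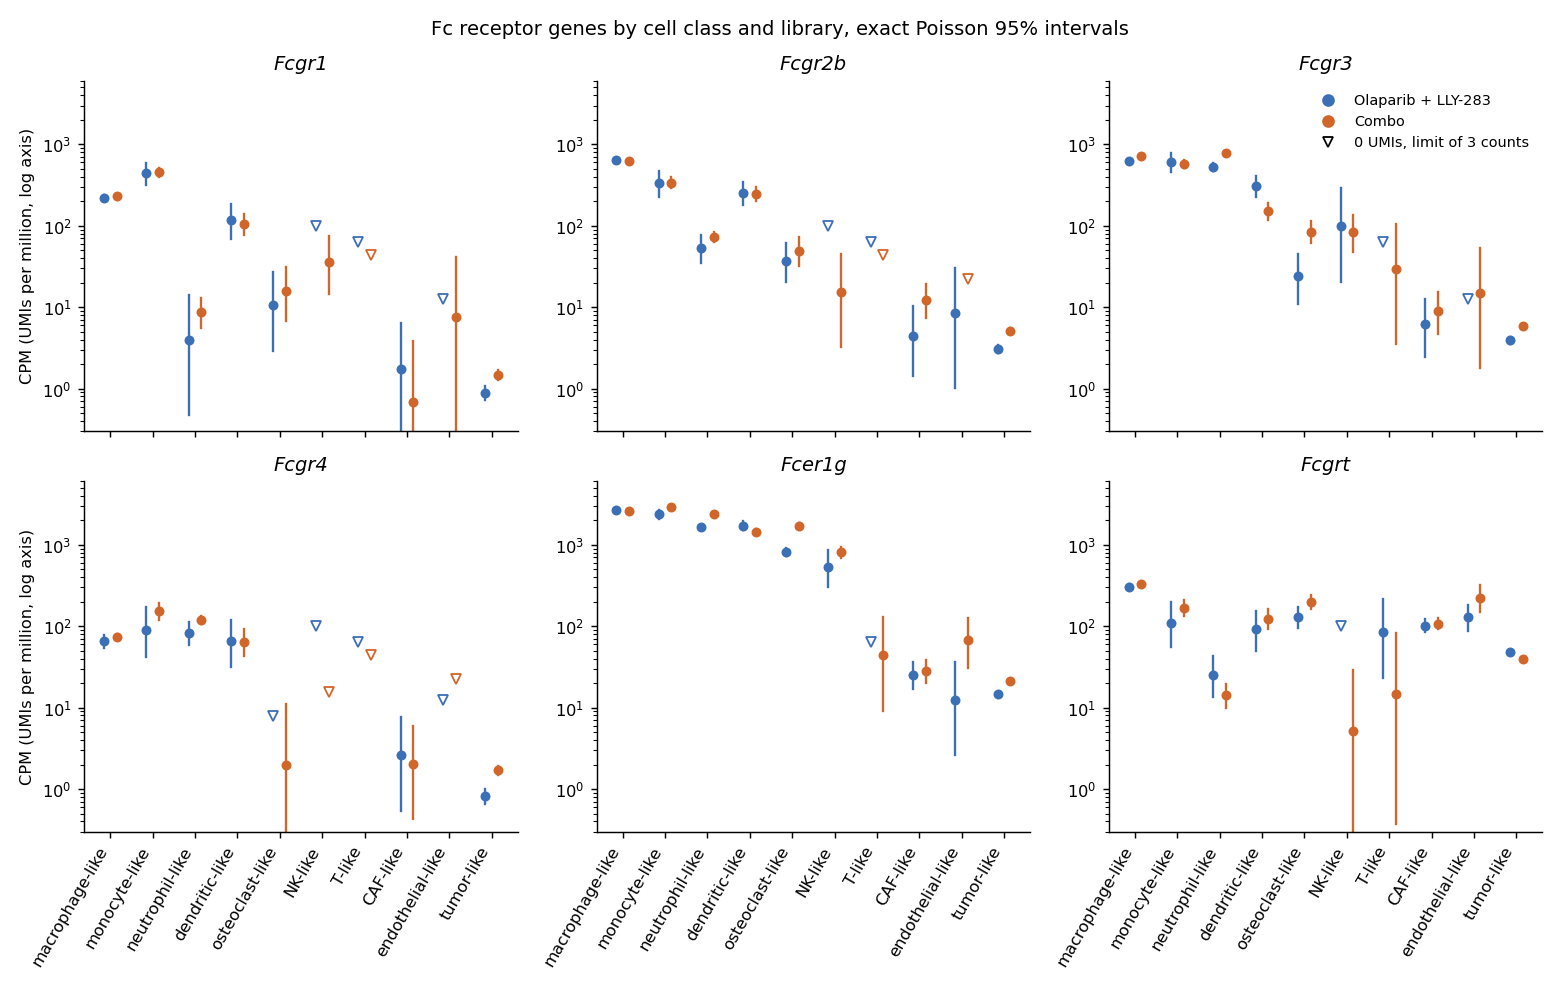
CPM of the 6 genes (log axis) in each cell class, for Olaparib + LLY-283 and for Combo, with exact Poisson 95% intervals, and open triangles at the limit of 3 counts where a class held 0 UMIs. Macrophage-like and monocyte-like cells lead for most genes, NK-like cells hold Fcer1g at 529.9 and 807 CPM, and Fcgrt stays near 100 CPM in CAF-like cells.

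*Fcgr1*, which binds free IgG, was highest in monocyte-like cells, at 442 CPM (321 to 593) in Olaparib + LLY-283 and 452 CPM (393 to 518) in Combo. Macrophage-like cells followed at 219 CPM (199.5 to 241) and 232 CPM (222 to 244), and dendritic-like cells at 117 CPM (69.4 to 185) and 104 CPM (76.4 to 138). This order was the same in both libraries, and no neighbors among these 3 classes had overlapping intervals. Monocyte-like cells held monocyte markers at 3544 and 5598 CPM, macrophage markers at 4488 and 4369 CPM and dendritic markers at 8685 and 4954 CPM. The part of this mixture in the order was not tested. Neutrophil-like cells held 2 UMIs in Olaparib + LLY-283 and 24 in Combo, or 3.91 and 8.67 CPM. T-like cells held 0 UMIs in both libraries, and tumor-like cells 0.887 and 1.47 CPM.

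*Fcgr2b*, the inhibitory receptor, was highest in macrophage-like cells, at 641 CPM (607 to 677) in Olaparib + LLY-283 and 629.8 CPM (612 to 648) in Combo. Monocyte-like cells held 331 and 339 CPM and dendritic-like cells 254 and 248 CPM, with overlapping intervals between these neighbors. Neutrophil-like cells held far less, 52.8 CPM (34.8 to 76.8) and 72.3 CPM (62.6 to 83.0). NK-like cells held 0 and 3 UMIs, and T-like cells 0 in both.

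*Fcgr3*, the activating receptor that most myeloid cells and NK cells are known to carry, was spread more widely. Macrophage-like cells held 621 CPM (588 to 657) in Olaparib + LLY-283 and 721 CPM (702 to 741) in Combo, and monocyte-like cells 602 and 574 CPM. Neutrophil-like cells held 530.1 CPM (469 to 597) and 782 CPM (749 to 815). The 3 leading classes had overlapping intervals between neighbors in Olaparib + LLY-283 and separate ones in Combo, where neutrophil-like cells came first. NK-like cells held only 3 UMIs in Olaparib + LLY-283 and 16 in Combo, or 99.4 CPM (20.5 to 290.3) and 82.8 CPM (47.3 to 134). In Olaparib + LLY-283 that interval overlapped the one of dendritic-like cells, at 306 CPM (225 to 407), and in Combo it lay in the range of osteoclast-like cells, at 84.7 CPM.

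*Fcgr4*, which binds IgG2a and IgG2b, was the least abundant of the IgG receptors in macrophage-like cells, with 134 and 535 UMIs, or 65.3 CPM (54.7 to 77.4) and 73.4 CPM (67.3 to 79.9). Its level was 90.4 and 152 CPM in monocyte-like cells, 82.2 and 119 CPM in neutrophil-like cells and 65.1 and 64.2 CPM in dendritic-like cells. Neighbors among these 4 classes had overlapping intervals in Olaparib + LLY-283. In Combo, monocyte-like and neutrophil-like cells overlapped each other and lay above macrophage-like cells. NK-like cells held no *Fcgr4* UMI in either library, which at 3 counts allows up to 99.4 and 15.5 CPM. The 5 cells with the most *Fcgr4* held 18.7% and 18.3% of its UMIs in macrophage-like cells and 16.7% and 5.76% in neutrophil-like cells. In monocyte-like cells, with only 9 and 70 UMIs, they held 55.6% and 58.6%. In dendritic-like cells, with only 10 and 29 UMIs, they held 90.0% and 93.1%.

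*Fcer1g*, the signaling chain, had the highest UMI counts of the 6 genes in these phagocytes and also marked NK-like and osteoclast-like cells. It stood at 2648 CPM (2578 to 2720) and 2629 CPM (2592 to 2666) in macrophage-like cells, and at 2390 and 2879 CPM in monocyte-like cells. Neutrophil-like cells held 1655 and 2368 CPM, dendritic-like cells 1718 and 1434 CPM, osteoclast-like cells 814 and 1710 CPM and NK-like cells 529.9 and 807 CPM. Tumor-like cells held 14.5 and 21.4 CPM and T-like cells 0 and 3 UMIs. NK-like cells therefore held *Fcer1g* beside few UMIs of *Fcgr3*, and 5 cells carried 64.7% of the *Fcer1g* UMIs of that class in Combo.

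*Fcgrt* had another distribution. Macrophage-like cells were highest, at 303 CPM (279 to 327) and 327 CPM (314 to 341), followed in Combo by endothelial-like cells at 224 CPM (151 to 320.3), whose interval overlapped that of macrophage-like cells. Osteoclast-like cells held 129.9 and 199 CPM, CAF-like (fibroblast) cells 102 and 107 CPM and tumor-like cells 48.1 and 39.7 CPM. Neutrophil-like cells were low, at 25.4 CPM (13.5 to 43.5) and 14.1 CPM (10.0 to 19.3). For each *Fcer1g* UMI, tumor-like cells held 3.31 and 1.86 *Fcgrt* UMIs, CAF-like cells 4 and 3.83 and macrophage-like cells 0.114 and 0.124. *B2m*, the partner chain, was measured at 1740 and 1581 CPM in macrophage-like cells and at 1555 and 1354 CPM in neutrophil-like cells.

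Shares of cells with a UMI depended on depth, so each cell was also thinned to 1000 UMIs, with shallower cells left out. *Fcer1g* was then found in 88.2% of macrophage-like cells (85.7 to 90.5, exact Clopper-Pearson interval) in Olaparib + LLY-283 and in 87.1% (84.2 to 89.7) in Combo. With all UMIs the shares were 90.8% and 97.6%. For *Fcgr1* in macrophage-like cells, all UMIs gave 29.4% in Olaparib + LLY-283 and 71.7% in Combo, whereas thinning gave 17.6% (14.9 to 20.6) and 20.3% (17.1 to 23.7). The wide gap in *Fcgr1* shares was therefore not present at 1 depth. Thinned shares of *Fcgr2b* were 40.0% and 41.5%, of *Fcgr3* 44.1% and 47.7%, of *Fcgr4* 5.68% and 6.61% and of *Fcgrt* 18.8% and 16.8%, each pair with overlapping intervals. As a background, thinned tumor-like cells, with median depths of 8384 and 44354 UMIs before thinning, had *Fcer1g* in 1.495% and 2.26%, *Fcgr3* in 0.419% and 0.693% and *Fcgr1* in 0.0998% and 0.172% of cells. In neutrophil-like cells, thinning left 65 of 672 cells in Olaparib + LLY-283 and 1276 of 1417 in Combo. In those cells *Fcer1g* was found in 62.7% (49.8 to 74.4) and 84.3% (82.2 to 86.3), *Fcgr3* in 34.8% (23.4 to 47.6) and 51.6% (48.9 to 54.4) and *Fcgr4* in 11.1% and 10.6%. *Fcgr1* in thinned neutrophil-like cells of Combo, at 0.881% (0.445 to 1.56), was above its share in thinned tumor-like cells of that library. With all UMIs the order was the reverse, 1.62% in neutrophil-like and 5.93% in tumor-like cells. Median depths were 1897 and 44354 UMIs, so the comparison does not show a level above background.

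**Figure D2:**
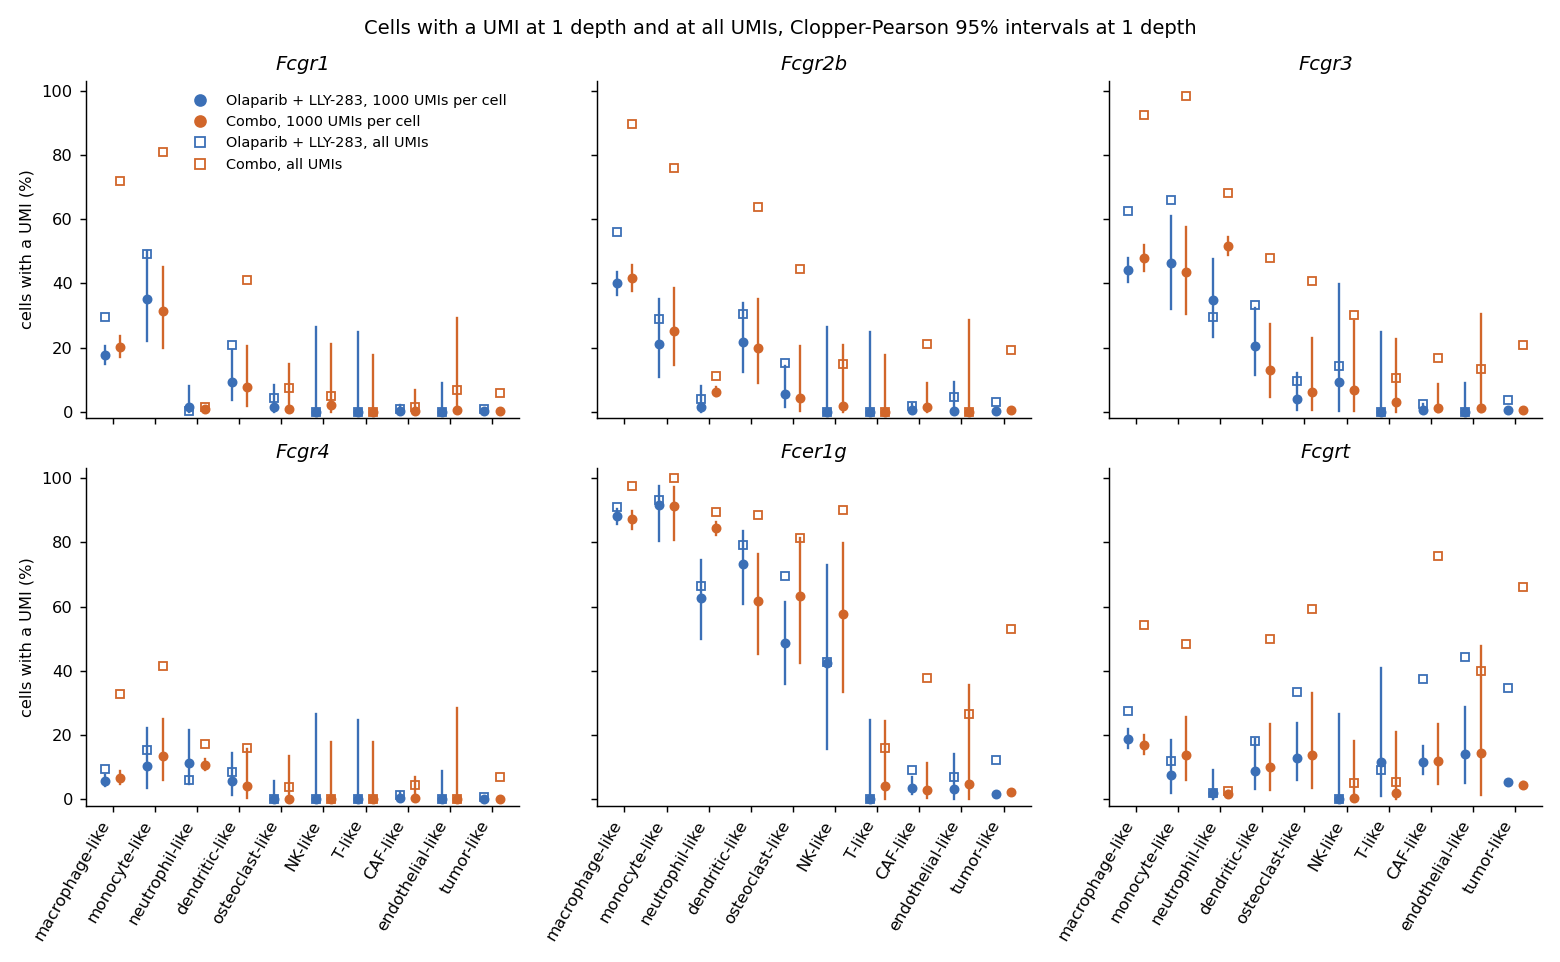
Percentage of cells with a UMI of each gene by class and library, as circles with Clopper-Pearson 95% intervals after thinning to 1000 UMIs per cell and as open squares with all UMIs. In macrophage-like cells Fcgr1 is at 17.6% and 20.3% after thinning, against 29.4% and 71.7% with all UMIs.

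The design asks whether adding anti-PD-1 to Olaparib + LLY-283 goes with other receptor levels in the same class of cell. In macrophage-like cells none of the 6 genes was past 1.5-fold in either direction. Of 7710 genes with at least 100 UMIs in that class, 5.55% were past 1.5-fold higher in Combo and 2.17% lower. The ratio of Combo to Olaparib + LLY-283 was 1.06 (0.955 to 1.18) for *Fcgr1*, 0.982 (0.923 to 1.04) for *Fcgr2b* and 1.16 (1.09 to 1.23) for *Fcgr3*. It was 1.12 (0.928 to 1.37) for *Fcgr4*, 0.993 (0.963 to 1.02) for *Fcer1g* and 1.08 (0.989 to 1.18) for *Fcgrt*. The interval excluded 1 for *Fcgr3* only, and every interval lay inside 1.5-fold. The median log2 ratio of the 6 genes was 0.10, against 0.08 over all genes. The macrophage-like cells of the libraries lay largely in different sub-clusters. Among them, 5 held 116, 139, 97, 109 and 147 cells of Olaparib + LLY-283 and 7, 13, 0, 4 and 5 of Combo, and 3 others held 104, 130 and 121 cells of Combo and 16, 19 and 14 of Olaparib + LLY-283. In the 3 with at least 20 cells in each library, *Fcgr3* stood at 638, 313 and 564 CPM in Olaparib + LLY-283 and at 775, 514 and 694 CPM in Combo. The part of this split in the macrophage-like ratios was not tested. The lack of calls depended on removing called doublets, barcodes that may hold more than 1 cell. With them kept, 406 of 1263 macrophage-like cells in Olaparib + LLY-283 were called doublets and held 65.4% of the UMIs of the class. In Combo they were 79 of 674 cells with 31.9% of the UMIs. All 6 genes were then past 1.5-fold higher in Combo, where 14.5% of 9612 genes were higher and 9.14% lower, and the 12 macrophage markers together had a ratio of 1.91, against 1.00 without the doublets.

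In monocyte-like cells, 4 genes had at least 100 UMIs and none was past 1.5-fold. Over all 931 such genes, 10.1% were higher and 5.16% lower. The ratio was 1.02 for both *Fcgr1* (0.737 to 1.45) and *Fcgr2b* (0.700 to 1.54), 0.953 (0.718 to 1.28) for *Fcgr3* and 1.20 (1.05 to 1.39) for *Fcer1g*. The intervals of the first 3 genes include 1 and reach as far as 1.54.

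In neutrophil-like cells, *Fcgr3*, *Fcgr4* and *Fcer1g* were all higher in Combo, each just under 1.5-fold. The ratio was 1.47 (1.299 to 1.68) for *Fcgr3*, 1.45 (1.05 to 2.05) for *Fcgr4* and 1.43 (1.33 to 1.54) for *Fcer1g*. For *Fcgr2b* it was 1.37 (0.912 to 2.13), from 27 and 200 UMIs. None of these 4 genes was past 1.5-fold, where 21.1% of 3635 genes were higher and 16.6% lower. Their median log2 ratio was 0.53, against 0.06 over all genes. Keeping only cells of at least 1000 UMIs, which left 56 and 1275 neutrophil-like cells, put 3 of them past 1.5-fold higher, *Fcgr2b*, *Fcgr3* and *Fcer1g*, where 33.5% of 3076 genes were higher and 23.3% lower. With doublets kept all 4 were past it, where 15.7% of 7464 genes were higher and 13.6% lower and the 10 neutrophil markers together had a ratio of 3.11. The neutrophil-like cells of the libraries fell in different clusters. One cluster, led by genes including *Ccl3*, held 664 cells of Olaparib + LLY-283 and 573 of Combo. The other, led by genes including *Cxcr2*, the chemokine receptor of mature neutrophils, held 8 and 844. Within the shared cluster, a view chosen after its values were seen, *Fcgr3* had a ratio of 1.49 (1.296 to 1.72), at 528 and 789 CPM. *Fcer1g* stood at 1640 and 1566 CPM there, a ratio of 0.955 (0.876 to 1.04), and *Fcgr4* at 77.5 and 50.2 CPM, a ratio of 0.648 (0.415 to 1.02). In the cluster found nearly only in Combo, *Fcer1g* was 2777 CPM and *Fcgr4* 154 CPM. *Fcgr3* was 778 CPM in the Combo cells of that cluster, where Olaparib + LLY-283 had only 5 UMIs of it. Smaller sub-clusters of neutrophil-like cells were also divided by library. The pair that held most cells of Olaparib + LLY-283 had *Fcgr3* at 636 and 504 CPM in 304 and 269 cells of that library. In Combo it stood at 489 and 458 CPM in 59 and 53 cells of the pair. The other pair with at least 20 cells in each library had 165 and 346 CPM in Olaparib + LLY-283. In Combo that pair had 223 and 809 CPM. Combo was thus lower by value in the first pair and higher in the second, with overlapping intervals between libraries in each sub-cluster. The highest level of *Fcgr3*, 944 CPM, was in a sub-cluster with 376 of its 388 cells from Combo. The library and the make-up of the class cannot be told apart for these genes.

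In dendritic-like cells, *Fcgr3* was lower in Combo, at 306 CPM (225 to 407) in Olaparib + LLY-283 and 151 CPM (117 to 191) in Combo, a ratio of 0.492 (0.334 to 0.730). It was the only gene of 3 with at least 100 UMIs to pass 1.5-fold, where 6.37% of 879 genes were lower and 6.71% higher. *Fcgr2b* had a ratio of 0.977 (0.673 to 1.45) and *Fcer1g* of 0.835 (0.723 to 0.967). The 12 macrophage markers, all detected in both libraries, moved the same way in these cells, summing to 1399 CPM in Olaparib + LLY-283 and 684 CPM in Combo, and so did the 9 monocyte markers, at 1165 and 750.3 CPM. Their part in the *Fcgr3* difference was not tested. Classed cell by cell from marker UMIs, the dendritic-like cells gave a ratio of 0.688, inside 1.5-fold.

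In osteoclast-like cells, *Fcer1g* was 814 CPM (726 to 911) in Olaparib + LLY-283 and 1710 CPM (1598 to 1827) in Combo, a ratio of 2.10 (1.84 to 2.40). *Fcer1g* is known to be needed with its relative *Tyrobp* for the formation of osteoclasts. *Fcgrt* stood at 129.9 and 199 CPM, a ratio of 1.53 (1.08 to 2.20). Both genes with at least 100 UMIs were thus past 1.5-fold higher, where 11.6% of 1325 genes were higher and 12.8% lower. The class is small, and 5 of the 27 Combo cells held 47.0% of its *Fcer1g* UMIs. The osteoclast markers summed to 15832 CPM in Olaparib + LLY-283 and 24395 CPM in Combo, the macrophage markers to 928 and 1462 CPM and the tumor markers to 522 and 70.9 CPM, and their part in the difference was not tested. With 15 principal components the *Fcer1g* ratio was 1.24, and the *Fcgrt* ratio turned to 0.959. Neither gene was past 1.5-fold with the mean over cells, at log2 ratios of 0.55 and 0.32, and *Fcgrt* was also just inside it under 10% mitochondrial UMIs and with cells classed one by one, at log2 ratios of 0.58.

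In NK-like cells only *Fcer1g* reached 100 UMIs, at a ratio of 1.52 (0.909 to 2.73) from 16 and 156 UMIs, just past 1.5-fold, where 15.8% of 291 genes were higher and 9.28% lower. Its interval includes 1. A group of 5 cells held most of those UMIs, 75.0% in Olaparib + LLY-283 and 64.7% in Combo. In CAF-like cells *Fcgrt* was inside 1.5-fold, at a ratio of 1.05 (0.822 to 1.35), where 4.15% of 3876 genes were higher and 2.55% lower. In tumor-like cells, which give the background, the activating and inhibitory receptors stood at 5.85 CPM or less and *Fcer1g* at 14.5 and 21.4 CPM. There 3 of 6 genes were past 1.5-fold higher in Combo, *Fcgr1*, *Fcgr2b* and *Fcgr4*, where 4.47% of 13684 genes were higher and 2.3% lower. The macrophage markers summed to 54.3 and 71.1 CPM in tumor-like cells of Olaparib + LLY-283 and Combo. *Fcgrt* was lower in those of Combo, with a ratio of 0.825 (0.795 to 0.857).

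**Figure D3:**
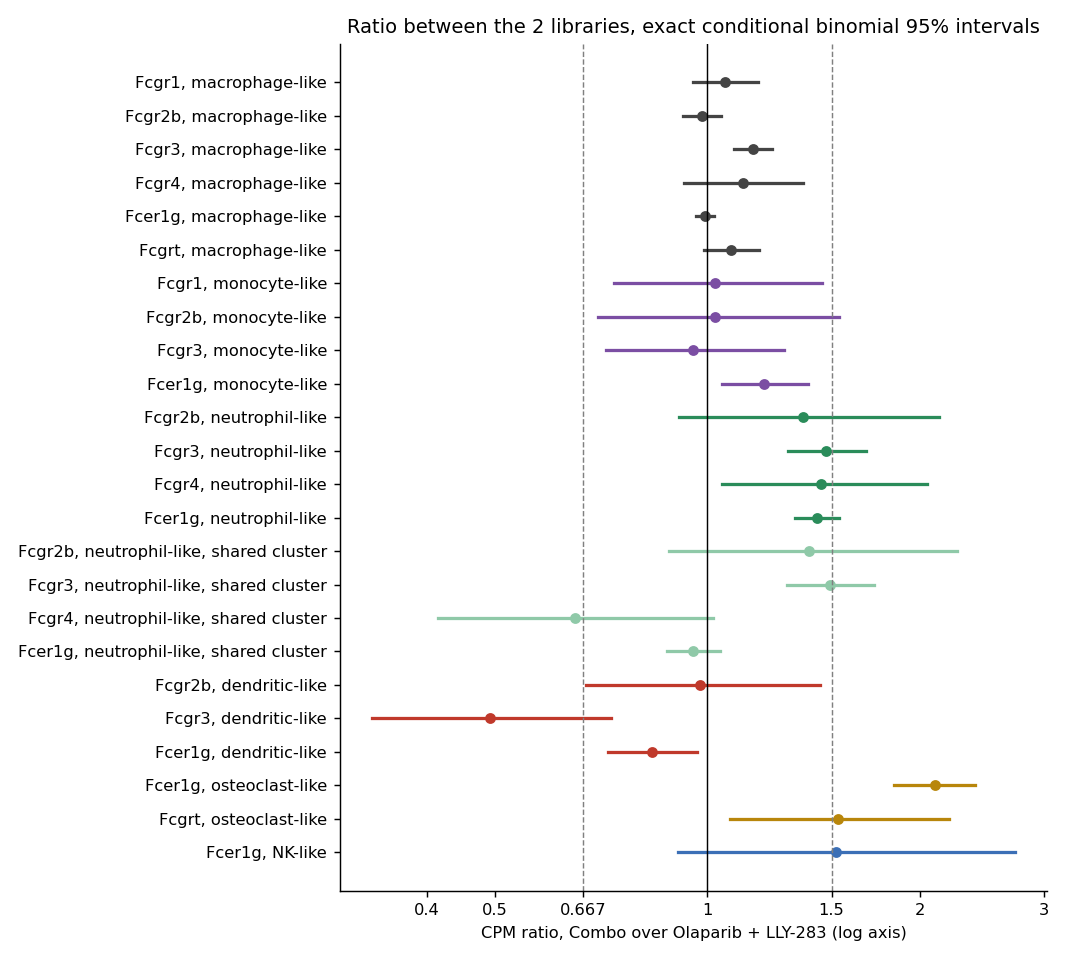
Ratio of CPM, Combo over Olaparib + LLY-283 (log axis), for each gene with at least 100 UMIs in a class, and for 4 genes in the neutrophil-like cluster that both libraries share, with exact conditional binomial 95% intervals and dashed lines at 1.5-fold. Macrophage-like intervals lie inside 1.5-fold, Fcgr3 of dendritic-like cells is at 0.492 and Fcer1g of osteoclast-like cells at 2.10.

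The balance of the receptors was read as the share of *Fcgr2b* among UMIs of *Fcgr1*, *Fcgr2b*, *Fcgr3* and *Fcgr4*. Capture can differ between genes, so the share is compared between cells only. In macrophage-like cells *Fcgr2b* made up 41.4% (39.7 to 43.2) in Olaparib + LLY-283 and 38.0% (37.1 to 38.9) in Combo, with intervals that did not overlap, beside the split of this class by sub-cluster given above. In monocyte-like cells it was 22.6% and 22.3%, in dendritic-like cells 34.2% (25.6 to 43.7) and 43.8% (37.6 to 50.1), and in neutrophil-like cells 7.89% (5.27 to 11.3) and 7.36% (6.40 to 8.40). Neutrophil-like cells thus held 11.7 and 12.6 activating UMIs for each inhibitory one, and macrophage-like cells 1.41 and 1.63. This order of macrophage-like, monocyte-like and neutrophil-like cells was the same in both libraries. With all UMIs, 4.02% and 11.2% of neutrophil-like cells held an *Fcgr2b* UMI, and so did 2.95% and 19.1% of the deeper tumor-like cells. Whether the 27 and 200 *Fcgr2b* UMIs of neutrophil-like cells exceed background was not tested.

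**Figure D4:**
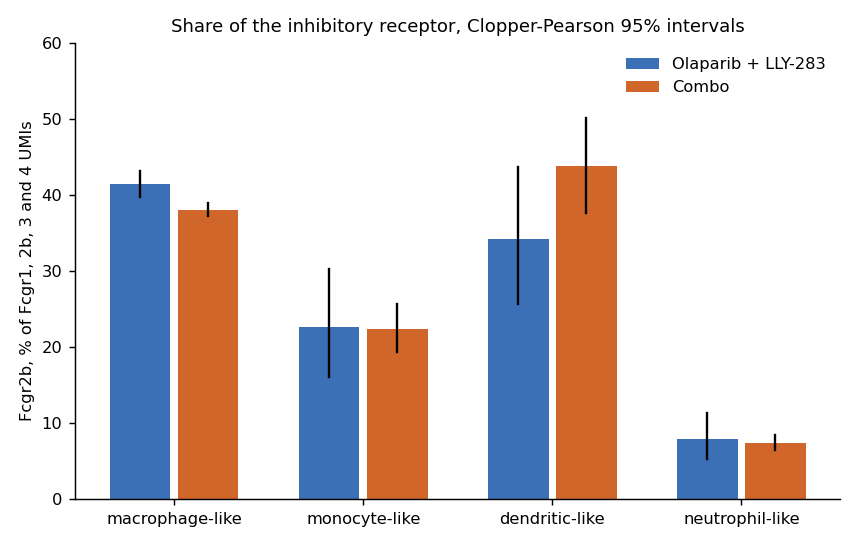
Fcgr2b as a percentage of the UMIs of the 4 IgG receptors in macrophage-like, monocyte-like, dendritic-like and neutrophil-like cells, with Clopper-Pearson 95% intervals. The bars stand at 41.4% and 38.0% in macrophage-like cells and at 7.89% and 7.36% in neutrophil-like cells.

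Single cells often held several of the genes. At 1000 UMIs, *Fcgr3* and *Fcer1g* occurred together in 39.3% of macrophage-like cells of Olaparib + LLY-283 and in 42.5% of those of Combo. The product of their separate shares was 38.9% and 41.6%. *Fcgr1* and *Fcgr4* occurred together in 2.27% and 2.38%, where the product was 1.00% and 1.34%. For *Fcgr1* and *Fcgr2b*, 6.70% and 7.77% were observed and the products were 7.06% and 8.42%. *Fcgr2b* and *Fcgr3* occurred together in 20.4% and 20.9%, where the product was 17.7% and 19.8%. For *Fcgr2b* and *Fcgrt*, 9.44% and 8.51% were observed and the products were 7.54% and 6.98%. No test was made of these gaps, which rest on 737 and 606 cells.

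The genes also separated states within the macrophage-like class. Sub-clusters, chosen for display after the data were seen, are given where a library held at least 20 cells. *Fcgrt* was highest in the sub-clusters that also held *Lyve1* and *Cd163*, genes of resident perivascular macrophages. One of them, with 73 cells of Olaparib + LLY-283, had 1387 CPM of *Fcgrt*, and the other, with 104 cells of Combo, had 964 CPM. The remaining sub-clusters ranged from 39.9 to 340.3 CPM. The sub-clusters high in *Lyve1* each came mostly from 1 library, with 8 Combo cells in the first and 16 cells of Olaparib + LLY-283 in the second, so state and library cannot be told apart in them. *Fcgr2b* stood at 909 CPM in the Combo sub-cluster and at 761 CPM in the other. It reached 919 CPM in 116 cells and 797 CPM in 50 cells of Olaparib + LLY-283, in sub-clusters with *Lyve1* at only 10.2 and 26.6 CPM. *Fcgr1* and *Fcgr4* were instead highest in the sub-clusters with the most UMIs of the interferon genes *Ifit1*, *Ifit2*, *Ifit3*, *Rsad2* and *Cxcl10*. In the sub-cluster led by *Cxcl11*, *Rsad2* and *Ifit2*, *Fcgr1* stood at 751 CPM in 21 cells of Olaparib + LLY-283 and at 756 CPM in 51 cells of Combo, and *Fcgr4* at 125 CPM (54.1 to 247) and 388 CPM (338 to 442). A sub-cluster led by *Spic* and holding *Cxcl9*, with 109 cells of Olaparib + LLY-283, had 447 CPM of *Fcgr1*, 287 CPM of *Fcgr4* and only 287 CPM of *Fcgr2b*. All other sub-clusters held 272 CPM of *Fcgr1* or less and 54.8 CPM of *Fcgr4* or less. The interferon genes summed to 6387 and 3478 CPM in the *Cxcl11* sub-cluster and to 531 CPM in the *Spic* one. Within Olaparib + LLY-283, *Fcgr4* was thus higher by value where these genes were lower, with overlapping intervals. *Ly6c2*, a monocyte marker, was also highest in both sub-clusters, at 62.6 and 47.2 CPM in the first and 91.7 CPM in the second. *Fcer1g* varied far less than *Fcgrt*, from 1980 to 3052 CPM.

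*Fcgr4* was also highest in an interferon state of neutrophil-like cells. Their sub-cluster with the most UMIs of *Ifit1*, *Ifit2*, *Ifit3*, *Rsad2* and *Cxcl10*, which summed to 7603 and 8668 CPM, held *Fcgr4* at 346 CPM (112 to 806) in 20 cells of Olaparib + LLY-283 and at 367 CPM (295 to 452) in 114 cells of Combo. In the other neutrophil-like sub-clusters *Fcgr4* was between 20.8 and 129.5 CPM. *Fcgr1* was at 28.9 CPM (11.6 to 59.5) in the 114 Combo cells and at most at 17.7 CPM in the other sub-clusters. Over 16 macrophage-like points, each a sub-cluster in 1 library, Pearson's r of log2(CPM + 10) with the summed interferon genes was 0.83 for *Fcgr1* and 0.79 for *Fcgr4*, and that of *Fcgrt* with *Lyve1* was 0.83. Over 13 neutrophil-like points it was 0.83 for *Fcgr4*. These points share libraries and few of them lie at the high end, so the coefficients are descriptions.

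**Figure D5:**
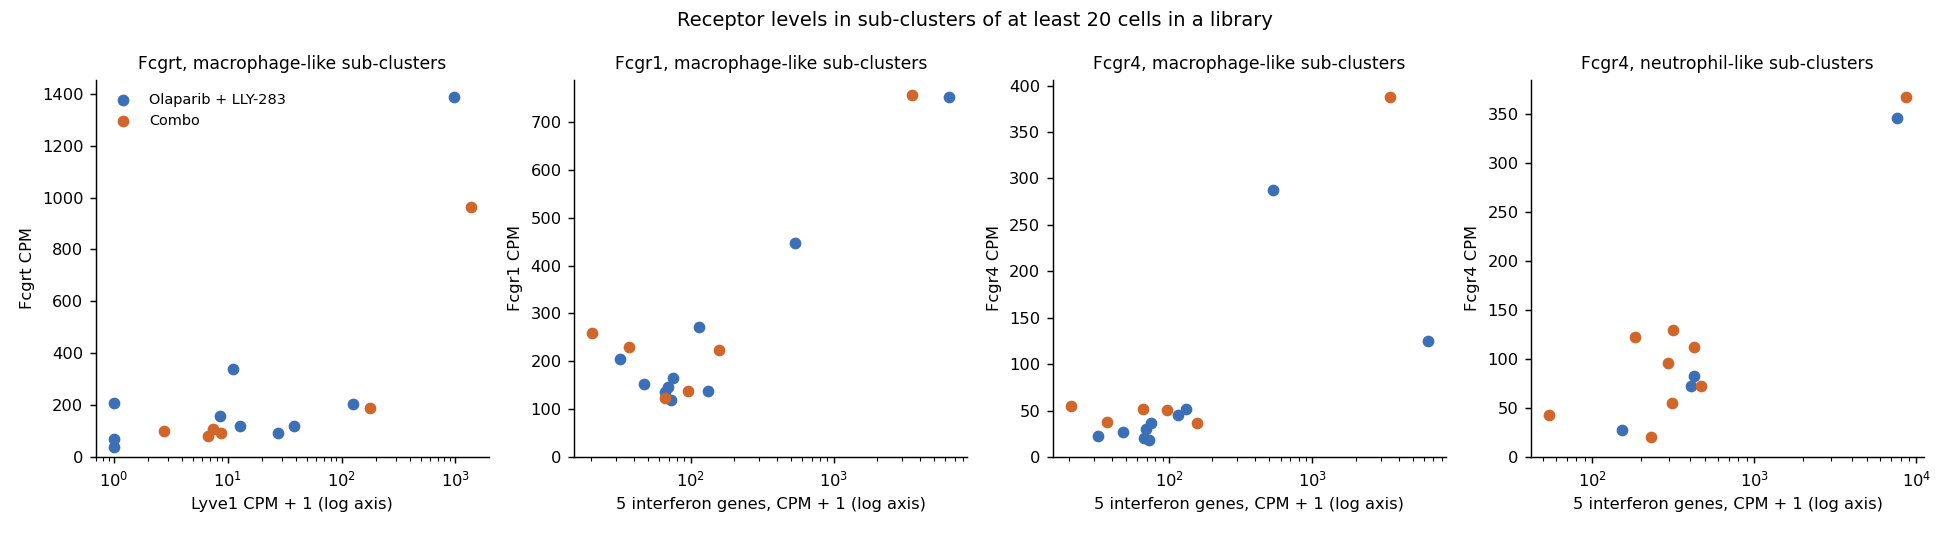
Each point is a sub-cluster with at least 20 cells in 1 library, showing Fcgrt CPM against Lyve1 CPM and Fcgr1 or Fcgr4 CPM against the summed CPM of 5 interferon genes (log x axes, 1 CPM added). The highest Fcgrt points, at 1387 and 964 CPM, are the highest in Lyve1, and the neutrophil-like points highest in interferon genes hold Fcgr4 at 346 and 367 CPM.

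Over 22 points, 11 classes in 2 libraries, the genes most like each receptor in pattern were ranked by Pearson's r of log2(CPM + 10) among 11381 genes. *Mrc1*, the mannose receptor (r = 0.98), *Aif1* (r = 0.98) and *Clec4a1* (r = 0.97) were most like *Fcgr1*. *Mpeg1*, *P2ry6* and *Cd300c2* were most like *Fcgr2b* (r = 0.96, 0.96 and 0.95), and *Itgam*, *Cd14* and *Wfdc17* most like *Fcgr3* (r = 0.97, 0.96 and 0.94). For *Fcgr4* they were *Pilra*, the kinase gene *Fgr* and *Nlrp3* (r = 0.97, 0.97 and 0.96). *Tyrobp*, the other signaling chain, led for *Fcer1g* at r = 0.96, before *Itgam* (r = 0.94) and *Nckap1l* (r = 0.93). *Fcgrt* had weaker partners, *Piezo1* (r = 0.90), *Cyfip1* (r = 0.90) and *Grn* (r = 0.87). Among the 6 genes, r was 0.93 between *Fcgr3* and *Fcer1g* and 0.91 between *Fcgr1* and *Fcgr2b*, and between 0.10 and 0.52 for *Fcgrt* with each of the others. The points share libraries and depth, and most of the spread is between myeloid and other cells.

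Genes of the same pathways were counted by list. In macrophage-like cells, 2 of 19 measured activating kinases, adaptors and effectors were past 1.5-fold higher in Combo and none lower, where 5.55% of all genes were higher and 2.17% lower. They were *Lyn*, a kinase that phosphorylates the gamma chain, at 174 and 265 CPM (ratio 1.52, 1.36 to 1.71), and *Vav1*, an exchange factor, at 44.8 and 67.9 CPM (ratio 1.51, 1.21 to 1.91). *Lat2* and *Vav3* had the lowest ratios of the list, 0.986 and 0.998. Of 12 inhibitory signaling genes, read against the same shares, 2 were past 1.5-fold higher, *Cbl* at a ratio of 1.70 (1.41 to 2.07) and *Inpp5d*, the phosphatase used by *Fcgr2b*, at 73.1 and 118 CPM, a ratio of 1.62 (1.36 to 1.94). *Cd300a* was lower, at 47.8 and 28.3 CPM (ratio 0.591, 0.463 to 0.760), and *Pirb* had a ratio of 0.980. The partners of *Fcer1g* stayed inside 1.5-fold: *Clec4n*, *Clec4d* and *Clec4e*, lectin receptors for fungal and bacterial glycolipids and glycans, had ratios of 0.914, 0.936 and 1.06. *Tyrobp* had a ratio of 0.943 and *Hcst* of 0.765.

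In neutrophil-like cells, most measured genes of these lists were higher in Combo, beside the shift of clusters given above. Of 11 activating genes, 8 were past 1.5-fold higher and none lower, with a median log2 ratio of 1.09, where 21.1% of all genes were higher and 16.6% lower and their median was 0.06. *Ncf1*, a subunit of the oxidase that makes superoxide, stood at 27.4 and 93.6 CPM (ratio 3.42, 2.00 to 6.34) and *Rac2*, its small GTPase, at 113 and 260.1 CPM (ratio 2.29, 1.75 to 3.05). *Syk*, the kinase of the gamma chain, which was added after its values were seen, stood at 174 and 315 CPM, a ratio of 1.81 (1.46 to 2.28). *Vav3* had the lowest ratio, 0.923 (0.621 to 1.42). Of 9 inhibitory genes, read against the same shares, 6 were past 1.5-fold higher, led by *Ptpn6*, the phosphatase SHP-1, at 41.1 and 128 CPM (ratio 3.10, 2.00 to 5.08), and *Inpp5d* (ratio 1.98, 1.42 to 2.84), and none was lower. *Cbl* and *Lilrb4a* were lowest, at ratios of 1.16 and 1.43. Activating and inhibitory genes were thus higher together. *Clec4n* (ratio 1.98), *Clec4e* (1.68) and *Tyrobp* (1.58) were also past 1.5-fold higher, *Clec4d* (1.11) and *Hcst* (0.968) were not, and *B2m* had a ratio of 0.871 (0.806 to 0.941).

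Other receptors for antibody were scarce. *Fcrls*, a scavenger-like relative of the Fc receptors, was found mostly in macrophage-like cells, at 89.7 and 119.7 CPM (ratio 1.33, 1.14 to 1.57). *Fcrlb* was found at 12.2 and 14.0 CPM in the same cells (ratio 1.15, 0.735 to 1.86). *Trim21*, a receptor for antibody inside cells, had 1266 UMIs over all clustered cells. It was at 6.82 and 6.31 CPM in macrophage-like cells and, from very few UMIs, at 13.01 and 8.85 CPM in dendritic-like cells. The other 9 genes of the list, which include the chains of the IgE, IgM and IgA receptors, had 33 UMIs or fewer each over all clustered cells. Among immunoglobulin chains, *Ighm* had 219 UMIs and *Igkc* 82, and no cluster took the name of B or plasma cells.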

How the data were processed

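Single-cell 3′ libraries were prepared from tumors with a 10x Genomics kit, 1 library for each group and 3 mice pooled in each. The deposited matrices hold raw UMI counts per gene and cell, made by the authors with Cell Ranger on mm10. The file headers name version 6.1.2 and the methods a later one. Seurat 4.1.0, named in the submitters' notes, was not used here. Gene locations were taken from GENCODE M21, in which all 55450 gene identifiers were found.

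Barcodes passed the filter with 200 or more genes and a mitochondrial share below 20%, 16029 of Olaparib + LLY-283 and 5956 of Combo. Scrublet's automatic threshold called no doublets, so the highest scores were called at 0.8% per 1000 cells, 2055 and 284 cells, and removed. The libraries were clustered together with scanpy 1.11.5 (2000 variable genes, 30 principal components, 20 neighbors, Leiden resolution 1.3, igraph 0.11.9), without the 6 genes. A cluster took the name of the marker list with the highest mean log2 fold over the other cells, if at least 1 with 3 markers over 2-fold. Clusters left without a name were called tumor-like where *Krt8* and *Krt18* were both above 2 times their median over the named clusters. Phagocytes were clustered again into monocyte-like and dendritic-like sub-clusters by the first rule, those with neutrophil or tumor genes were set apart and the remaining ones were kept as macrophage-like, and NK-like and T-like cells were split cell by cell. The 6 genes and all lists were chosen with earlier results of these data known, and the naming rule was settled after the data were seen.

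UMIs were summed per class and library. With 1 library per group no test was made. A gene with at least 100 UMIs over both libraries was called past 1.5-fold by its CPM ratio, and ratios between libraries were given only for classes with at least 20 cells in each. Intervals are exact Poisson, Clopper-Pearson or conditional binomial at 95%, from scipy 1.17.1, and a count of 0 was bounded by 3 counts. UMIs are counted molecules, but cells of a pool are not independent animals. Thinned shares are the expected shares at 1000 UMIs, computed exactly. On simulated Poisson counts, 200 genes of each class were changed by a log2 ratio of 1 or 2 in either direction. Of these, 199 among 7710 genes of macrophage-like cells and 195 among 3635 genes of neutrophil-like cells were past 1.5-fold. Of the unchanged genes, 143 of 7510 and 161 of 3435 were also past it. The simulation held no smaller changes and no differences between cells, mice or sub-clusters, so these counts reflect counting error only. Named genes are the 6 genes, the 2 with the highest and lowest ratio of each list in macrophage-like and neutrophil-like cells, other Fc receptors with at least 100 UMIs, and the 3 genes most alike each of the 6. One gene among those the rule picks is not reported here.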

Additional observations from a re-analysis of the deposited data

Results flagged for a closer look

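The ratio of Combo to Olaparib + LLY-283 for *Fcgr3* differed between classes of cell. It was 1.16 in macrophage-like cells, 1.47 in neutrophil-like cells and 0.492 in dendritic-like cells, and the intervals did not overlap between neutrophil-like and macrophage-like cells or between either of them and dendritic-like cells. For *Fcer1g* the ratio was 2.10 in osteoclast-like cells and 0.835 in dendritic-like cells, also with separate intervals. These differences between classes were not tested, since each group is 1 library. The intervals cover counting error only, and 5 cells held 44.7% and 48.5% of the *Fcgr3* UMIs of dendritic-like cells.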

How the results depend on the processing

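No paired analysis was possible because each group has 1 library. In macrophage-like cells the count of the 6 genes past 1.5-fold was 0, and it was 6 with doublets kept and 1, *Fcgr4*, with the mean over cells in place of sums. In neutrophil-like cells the count was 0. It was 1, *Fcgr3*, under 10% mitochondrial UMIs, 3 with at least 1000 UMIs per cell and 5 with doublets kept, *Fcgrt* lower and the other 4 higher. The remaining alternatives gave 0 in both classes. Over all genes, 5.55% were higher and 2.17% lower in macrophage-like cells, and 21.1% and 16.6% in neutrophil-like cells. With doublets kept these shares were 14.5% and 9.14%, and 15.7% and 13.6%. With at least 1000 UMIs per cell they were 33.5% and 23.3% in neutrophil-like cells. They were not computed under 10% mitochondrial UMIs or for the mean over cells, so the counts of 1 have no share beside them. The number of genes highest in macrophage-like or monocyte-like cells was 5 and ranged from 4 to 6. It was 5 with the 6 genes kept for clustering or shared barcodes left out, 6 with doublets kept and 4 in the other settings counted. Of 289 log2 ratios under alternatives, 244 lay within the main interval and 44 outside it. A change of direction was counted only for ratios past 1.5-fold in the main setting. It was found for 1, *Fcgrt* in osteoclast-like cells with 15 principal components, at -0.060. Ratios inside 1.5-fold also changed sign, such as *Fcgrt* in macrophage-like cells, from 0.11 to as low as -0.16. The cause was not tested. *Fcgr3* ranged from 1.37 to 3.61 in neutrophil-like cells and between 0.431 and 0.688 in dendritic-like cells, while *Fcer1g* in osteoclast-like cells ranged from 1.24 to 2.40. Of 1344 thinned shares, 187 moved outside the main interval, among them 39 at 500 UMIs, 46 at 2000 and 61 with all UMIs. The NK-like and T-like classes were not found with at least 1000 UMIs per cell or at resolution 2. The choices to leave out shared barcodes and to take the shared neutrophil-like cluster alone were made after seeing the data. Depth limits the neutrophil-like cells of Olaparib + LLY-283, 90.3% of which had under 1000 UMIs, and the NK-like and T-like classes, and no interval covers differences between mice.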

Other observations

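Few genes of the pathway lists reached 100 UMIs in monocyte-like and dendritic-like cells. In monocyte-like cells *Cybb*, the catalytic subunit of the phagocyte oxidase, stood at 261 CPM in Olaparib + LLY-283 and 483 CPM in Combo, a ratio of 1.85 (1.23 to 2.89), and *Lyn* at 331 and 461 CPM, a ratio of 1.39 (0.961 to 2.07). In the same cells the 9 monocyte markers summed to 3544 and 5598 CPM and the 18 dendritic markers to 8685 and 4954 CPM, and their part in these ratios was not tested. In dendritic-like cells none of 4 activating genes passed 1.5-fold. *Tyrobp* had a ratio of 1.01 (0.870 to 1.18) in monocyte-like and 0.890 (0.775 to 1.02) in dendritic-like cells. *B2m* stood at 2749 and 2090 CPM in NK-like cells, the highest class when ranked by the lower of its values in the 2 libraries.

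A small group of phagocytes with neutrophil genes, 34 cells of Olaparib + LLY-283 and 8 of Combo, was left out of the classes. It held *Fcgr3* at 761 CPM (572 to 993) and 669 CPM (511 to 862), *Fcgr2b* at 536 and 446 CPM and *Fcer1g* at 2580 and 2923 CPM. Another group with tumor genes, 31 and 6 cells, held *Fcer1g* at 862 CPM (741 to 997) and 1465 CPM (1202 to 1769) and *Fcgrt* at 303 and 94.9 CPM.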
